A study of Ovis aries with 10 samples.

Results

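The genes described here are the highly abundant transcripts of the ewe pituitary that follow the 10 most abundant ones. They were chosen by their mean FPKM over all 10 libraries, as ranks 11 to 200, which gives 190 of the 17866 genes listed. Both feeding groups entered that mean alike, so the rule used the level of a gene and not its difference between the groups. Pituitary RNA was taken from pregnant wild-type Hu ewes in late gestation. The labels give day 115 of gestation, which by the study's methods is when the feeding groups were formed, and the glands were collected later, at slaughter. The CON group (n = 5) had normal feeding and the TR group (n = 5) restricted feeding at a fraction of normal intake. All ewes had lambed before and carried several lambs. Each ewe gave 1 library.

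The pituitary is a mixed tissue. Its anterior lobe holds several kinds of hormone-producing cells together with support cells, vessels and blood cells, and a few transcripts for secreted hormones usually fill a large part of its mRNA. In most tissues the next tier of abundance holds transcripts that every cell needs, such as those for ribosomal proteins, energy production and the cytoskeleton. This is background only: the tables list genes under numbered IDs without symbols, none of the 17866 IDs was found in the sheep gene table, and no gene was given a role or a sequence here. Markers of cell types could not be looked up either, so in these whole-tissue samples fewer cells of a type and less RNA per cell cannot be told apart. FPKM, the unit of all values, sets the fragments of a gene against the length of its exons and the total of mapped fragments, so levels can be compared between genes.

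Over the 10 libraries the mean level of the 190 genes ran from 2809 FPKM at rank 11 to 232.2 FPKM at rank 200, a 12.1-fold range with a median of 560.2 FPKM. Of these genes, 50 had a mean over 1000 FPKM, 58 lay between 500 and 1000 FPKM, and 82 lay below. All 190 passed the filter used for the tests. The first of them had 2724, 4797, 3745, 2521 and 3458 FPKM in CON1 to CON5. In TR1 to TR5 it had 1775, 2248, 2735, 1612 and 2472 FPKM. Every TR library except TR3 was below every CON library for this gene. The last had 280.0, 278.3, 269.4, 220.8 and 271.9 FPKM in CON1 to CON5 and 182.1, 201.6, 203.7, 170.7 and 243.8 FPKM in TR1 to TR5. CON4 was the low control, and TR5 alone lay above it. The gene just outside the upper limit, rank 10, had a mean of 3041 FPKM, and the gene just outside the lower limit, rank 201, had 231.9 FPKM. Neither limit marked a gap in the levels.

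**Figure D1:**
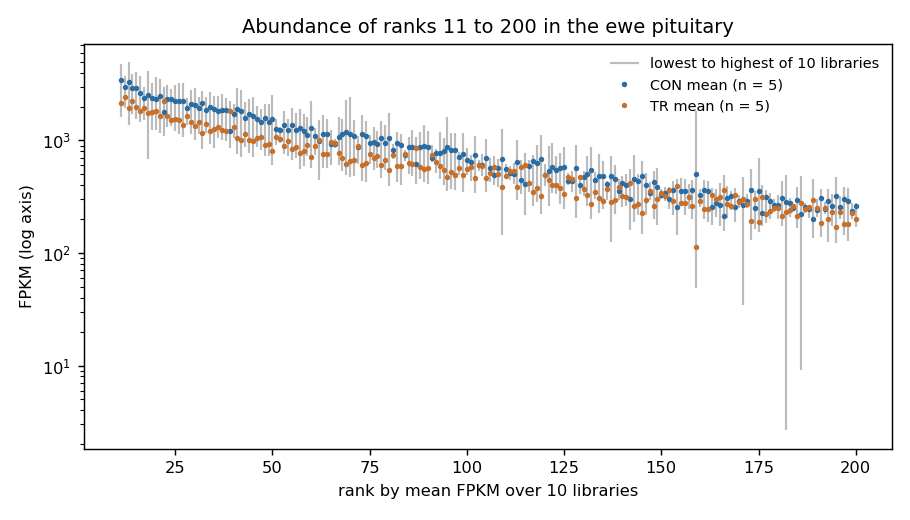
FPKM (log axis) of the genes of ranks 11 to 200 against rank, with the mean of each feeding group (n = 5 each) as points and the lowest to highest of the 10 libraries as grey lines. The levels fall smoothly from 2809 to 232.2 FPKM (mean of 10 libraries), and 3 genes at ranks 159, 182 and 186 have by far the longest lines.

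Most of these genes stayed near the top in every ewe. In each library 160 to 182 of the 190 were among its own 200 most abundant genes, fewest in CON2 (160) and CON5 (164), and 140 were among them in all 10 libraries. Only 5 were among them in fewer than 5 libraries. Ranked on the CON mean alone, 180 fell within the first 200 genes, and 181 did so on the TR mean alone. Ranking by the median FPKM in place of the mean kept 185 of the 190, and ranking by mean log2 FPKM kept 187.

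The summed level of the 190 genes was higher in 3 control libraries than in any TR library. Their summed FPKM was 146719, 226772, 177327, 134912 and 183414 in CON1 to CON5. In TR1 to TR5 it was 110279, 134330, 152723, 105612 and 137248. CON2, CON3 and CON5 were above every TR library, while CON1 and CON4 lay among the TR libraries. CON ewes had a mean of 173829 ± 35905 FPKM and TR ewes one of 128038 ± 19698 FPKM (SD, n = 5 each). In the summed FPKM of all genes these 3 libraries were also above every TR library, so that split was not particular to the 190. The sum over all genes was 779993, 804506 and 781546 in CON2, CON3 and CON5, and at most 699817 among the TR libraries (TR3). CON2 was the highest of the 3 for the 190 genes but the lowest of the 3 for all genes. As a share of all FPKM of the library, the 190 genes held 20.7 to 29.1% among CON ewes and 17.7 to 21.8% among TR ewes. CON2 was alone at 29.1%, and of the other CON libraries, at 20.7 to 23.5%, only CON4 lay within the TR range. With the 10 most abundant genes left out of the total, the shares were 39.8 to 50.3% among CON ewes and 33.1 to 43.4% among TR ewes. The lowest of these shares belonged to TR1 (33.1%) and TR4 (34.7%), and the highest to CON2 (50.3%), CON3 (48.4%) and CON5 (46.9%). The groups overlapped in all of these measures.

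The libraries deviated from one another in the same way for most of the 190 genes. CON2 held the highest value of 116 genes (61.1%), against 17.5% of all 14884 genes tested. TR4 held the lowest value of 89 (46.8%) and TR1 that of 52 (27.4%), against 12.3 and 8.15% of all genes tested. In 114 genes (60%) CON2, CON3 and CON5 were each above both CON1 and CON4, an order found in 14.8% of all genes tested. In 29 genes (15.3%) they were each below both, an order found in 47.6% of all genes tested. The abundant genes were thus high in the same 3 control libraries in which many other genes were low. What set these 3 libraries apart was not tested.

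**Figure D2:**
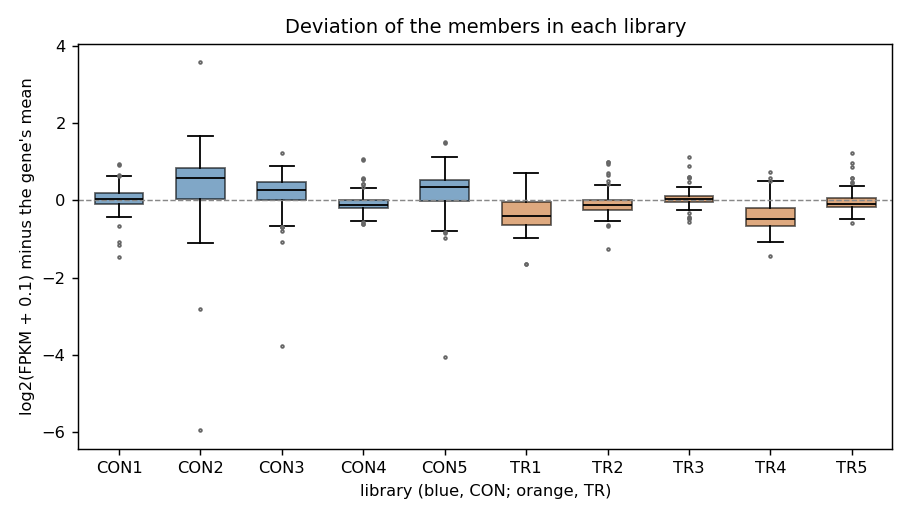
Box plots of log2(FPKM + 0.1) minus each gene's own mean over the libraries, for the 190 genes in each library (box, quartiles; line, median; whiskers to 1.5 times the box; points, single genes; blue, CON; orange, TR). The boxes of CON2, CON3 and CON5 lie highest and those of TR1 and TR4 lowest, while CON1 and CON4 lie near TR2, TR3 and TR5.

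A PCA of log2(FPKM + 0.1) over the 190 genes, centred but not scaled, put 66.8% of the variance on axis 1 and 17.1% on axis 2. Over all genes tested the first axis held 60.7%, so a strong first axis was not particular to the 190. On axis 1 of the 190 genes, CON2 had 10.99, CON5 6.05 and CON3 4.97, whereas CON1 had -1.42 and CON4 -2.48. The TR libraries lay between -6.73 (TR1) and 0.02 (TR3). CON ewes scored 3.62 ± 5.58 on average and TR ewes -3.62 ± 2.94 (SD, n = 5 each), and the groups overlapped, since both CON1 and CON4 lay below TR3. The group means accounted for 31.8% of the variance of these genes, so the larger part lay between ewes fed alike. Of the 190 genes, 150 ran with axis 1 and 40 against it. Axis 2 rested on few genes, as 80.4% of its squared loading came from the 3 genes at ranks 159, 182 and 186. Without them axis 1 held 78.9% and axis 2 5.83%.

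In those 3 genes single control libraries were more than 10 times away from the gene's median. The gene of rank 182 had 2.65 FPKM in CON2 and 267.3, 408.0, 259.5 and 488.7 FPKM in CON1, CON3, CON4 and CON5. In TR1 to TR5 it had 182.6, 221.5, 318.7, 181.3 and 257.7 FPKM. Its value was far lower in CON2 than in the other 9 libraries, and its SD within groups (2.23 on the log2 scale) was the largest of the 190. The gene of rank 186 had 10.99 FPKM in CON3 and 9.08 FPKM in CON5, against 292.8, 486.5 and 316.5 FPKM in CON1, CON2 and CON4 and 192.4, 295.7, 332.1, 215.0 and 354.2 FPKM in TR1 to TR5. Here 2 control ewes were low and the other 8 ewes were not. The gene of rank 159 went the other way, with 1815 FPKM in CON2 and 436.3 FPKM in CON5, against 68.1, 108.4 and 104.5 FPKM in CON1, CON3 and CON4 and 48.6 to 179.2 FPKM in the TR group. It entered the 190 through CON2, since its median was only 112.0 FPKM. None of the 3 passed the test between the groups (limma, adjusted p = 0.64, 0.29 and 0.31 for ranks 182, 186 and 159).

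A library far below all others was not particular to these genes. Among the 12198 listed genes with a mean of at least 1 FPKM, 43 were more than 10 times lower in CON2 than in any other library, the gene of rank 182 included, and 32 in CON5 and 23 in CON3, against 3 to 12 in each of the other 7 libraries. In CON3 and CON5 together, 7 genes were more than 10 times lower than in each of the other 8, the gene of rank 186 included. The source of such values was not tested.

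The other end of the range held genes that hardly varied. The gene of rank 184 had 267.6, 235.0, 258.1, 255.4 and 240.1 FPKM in CON1 to CON5 and 272.1, 264.6, 252.5, 242.5 and 271.9 FPKM in TR1 to TR5. Its highest library was only 1.16 times its lowest, the smallest SD within groups of the 190 (0.07 on the log2 scale). Across the 190 genes the highest library was a median of 2.51 times the lowest (quartiles 1.76 and 3.10), and in 129 genes it was more than 2 times. Over all genes tested the median ratio was 3.17, but this came from the least abundant genes, at 4.32 beyond rank 5000. The genes next in level varied less than the 190, with 2.04 from ranks 201 to 500 and 1.93 from 501 to 1000. From 1001 to 2000 the ratio was 1.94, and from 2001 to 5000 it was 2.07. The median SD of log2 FPKM was 0.36 among CON ewes and 0.27 among TR ewes, and the CON group was the more variable in 152 of the 190 genes (80.0%), against 71.2% of all genes tested. Without CON2 this was so in 116 genes (61.1%), against 68.6% of all genes tested, with medians of 0.29 and 0.27.

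The question of the design was how restricted feeding changed expression in the pituitary. Most of the 190 abundant genes were lower in the TR group, by a median of 0.43 on the log2 scale, whereas most other genes were higher. Their median log2 fold change was -0.43 (quartiles -0.64 and -0.08), with 150 genes below 0 and 40 above. The median over all 14884 genes tested was 0.23, and 34.8% of them were below 0. Among the 10 most abundant genes 90% were below 0, with 70.3% from ranks 201 to 500 and 66.2% from 501 to 1000. A majority of lower genes was thus not particular to the 190. The median standard error was 0.20, and only 3 of the 190 genes differed by more than 2-fold, those of ranks 159 and 186 among them. No gene passed the adjusted threshold.

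The test was limma on log2(FPKM + 0.1), run on every gene that reached 0.1 FPKM in 5 or more libraries, with p-values adjusted over all of them. Of the 190 genes, 0 had an adjusted p under 0.05, with or without a fold change over 2 or under 0.5, and the background was 0% of all genes tested. The smallest adjusted p among them was 0.12, shared by 39 genes. At an unadjusted p under 0.05 stood 106 of the 190 (55.8%), against 33.1% of all genes tested. Of these, 99 were lower in the TR group (52.1% of the 190, against 9.2% of all genes tested) and 7 were higher (3.68%, against 23.9%). The 99 lower genes had log2 fold changes of -1.05 to -0.27 with a median of -0.60, and the 7 higher genes 0.24 to 0.80.

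The control libraries were uneven in these counts. Among the 99 lower genes, CON2, CON3 and CON5 were all above every TR library in 94, while CON4 lay within the TR range in 88 and CON1 in 60. In all 7 higher genes CON2, CON3 and CON5 were each below CON1 and CON4, an order found in 47.6% of all genes tested. Both sets were picked by p-value from these same libraries, which favours controls that lie apart from the TR group. The counts for the lower genes were not made over all genes tested, so they only describe these genes. Without CON4 the comparison gave 86 of the 190 genes at an adjusted p under 0.05 (81 lower, 5 higher), against 25.4% of all genes tested, and 12 of the 190 past the fold threshold as well. All 12 were lower, against 12.7% of all genes tested past that threshold in either direction and 1.57% in the lower one. With libraries weighted by how closely each followed its group, 127 passed (112 lower, 15 higher), against 46.9% of all genes tested. In that fit CON4 and CON1 had the lowest weights (0.302 and 0.358). Without CON2, CON3 and CON5, which leaves 2 controls, 0 passed the adjusted threshold and 7 of the 190 stood at an unadjusted p under 0.05, all lower, against 4.92% of all genes tested. The median log2 fold change was then -0.16, and 164 of the 190 (86.3%) were below 0, against 47.7% of all genes tested. The difference between the groups was smaller against CON1 and CON4 alone, in the same direction. As CON2, CON3 and CON5 were the higher controls in most of the 190 genes, a smaller difference had to follow from leaving them out. Fewer controls also make a small p harder to reach.

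In 8 of the 190 genes (4.21%) the values of the TR and CON ewes did not overlap, against 4.81% of all genes tested. All 8 were lower in the TR group, against 1.46% of all genes tested in that direction, and 0 were higher, against 3.35%. The share of lower genes was not particular to the 190. It was 4.67% from ranks 201 to 500 and 5.4% from 501 to 1000, where 7 and 9 genes were higher without overlap. The ranks of the 8 ran from 24 to 197 and their log2 fold changes from -0.94 to -0.29, with a limma adjusted p of 0.12 in each. The count was 38 (37 lower, 1 higher) without CON4, against 13.1% of all genes tested, and 33 (30 lower, 3 higher) without TR3, against 10.8%. With quantile normalization, in which every library has the same distribution of values, it was 10 (4 lower, 6 higher), against 5.37% of all genes tested, so the single direction did not hold under that scaling.

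**Figure D3:**
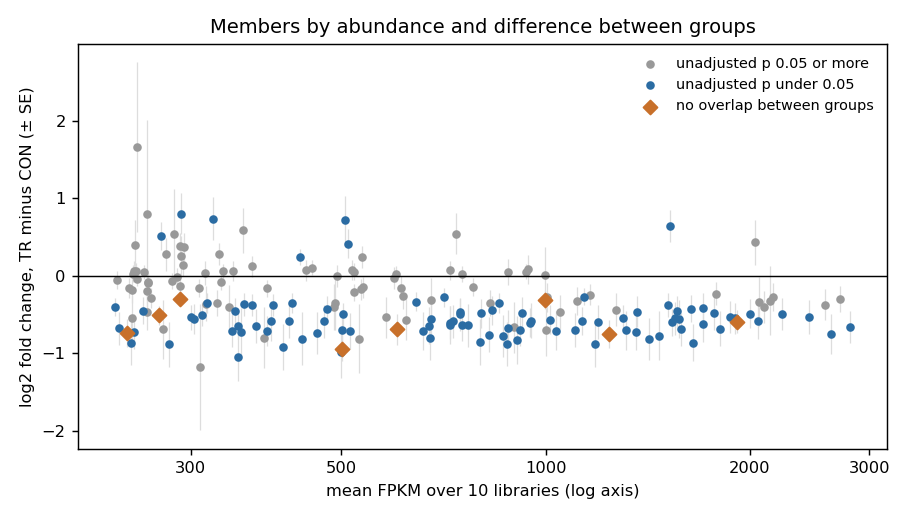
Log2 fold change between TR and CON (limma, grey bars ± standard error) against the mean FPKM of each of the 190 genes (log axis). Most points lie below 0, the 8 genes without overlap between the groups are marked by diamonds, and the gene highest on the plot, at 1.66, is that of rank 186.

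Of the lower genes, gene7386 at rank 117 had the smallest p. It had 656.6, 729.9, 743.7, 497.8 and 662.0 FPKM in CON1 to CON5 and 313.7, 375.4, 343.5, 259.2 and 431.9 FPKM in TR1 to TR5. The lowest control, CON4, was above the highest TR ewe, TR5. The CON mean was 658.0 ± 97.7 FPKM and the TR mean 344.8 ± 64.8 FPKM (SD, n = 5 each), 0.524 times as high. The log2 fold change was -0.94 (standard error 0.16, limma unadjusted p = 0.00011, adjusted p = 0.12). The other, gene6327 at rank 177, had 318.2, 365.4, 315.8, 278.5 and 306.2 FPKM in CON1 to CON5. In TR1 to TR5 it had 203.6, 227.4, 268.4, 185.6 and 230.0 FPKM. Again the groups did not overlap, but only narrowly, between CON4 and TR3. Its log2 fold change was -0.51 (standard error 0.12, adjusted p = 0.12 from limma). Both were lower in the TR group under every scaling tried, with gene7386 between -1.13 and -0.58 and gene6327 between -0.71 and -0.24.

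Of the higher genes, gene4551 at rank 39 had 1428, 851.2, 973.4, 1814 and 1005 FPKM in CON1 to CON5 and 1584, 1928, 2241, 1682 and 1745 FPKM in TR1 to TR5. CON4 lay among the TR ewes, and CON1 was just below them. Its log2 fold change was 0.64 (standard error 0.21, adjusted p = 0.12 from limma). The other, gene26633 at rank 166, had 316.0, 159.1, 156.4, 285.3 and 155.6 FPKM in CON1 to CON5. In TR1 to TR5 it had 317.3, 383.7, 232.6, 404.4 and 488.7 FPKM. CON2, CON3 and CON5 were below every TR ewe, and CON1 and CON4 were above TR3. Its log2 fold change was 0.80 (standard error 0.26, adjusted p = 0.12 from limma). Against CON1 and CON4 alone, the values were 0.18 for gene4551 and 0.24 for gene26633, while gene7386 and gene6327 were at -0.75 and -0.43, each with an adjusted p of 0.86 or more.

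**Figure D4:**
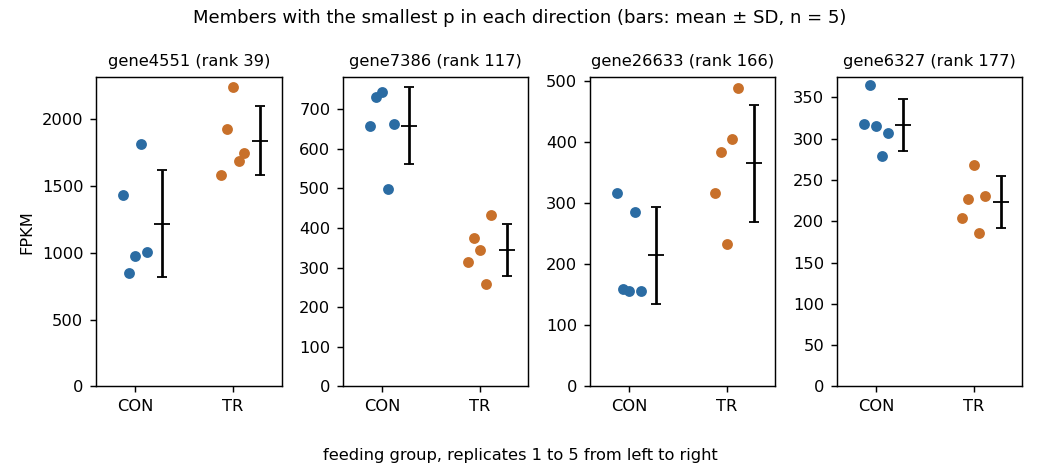
FPKM of the 4 named genes, 2 in each direction, 1 point per ewe (CON blue, TR orange), with mean ± SD of 5 ewes beside them and axes starting at 0. The groups do not overlap for gene7386 and gene6327, while CON4 and CON1 come close to or lie among the TR ewes for gene4551 and gene26633.

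With all 10 libraries as deposited, the size of the difference followed the level of the gene. From ranks 11 to 50 the median log2 fold change was -0.54, and 38 of 40 genes were lower in the TR group. From 51 to 100 it was -0.53 (43 of 50 lower), in the next 50 ranks it was -0.39 (37 of 50), and from 151 to 200 it was -0.11 (32 of 50). At an unadjusted p under 0.05, lower and higher genes numbered 30 and 1, 32 and 0, 24 and 3, and 13 and 3 in these bands. The last pair was 26 and 6% of its band, against 9.2 and 23.9% of all genes tested. Both shares were larger just outside, with 38.7 and 9% from ranks 201 to 500 and 33.2 and 10.6% from 501 to 1000. The trend of the medians did not end at rank 200. The median was -0.23 from 201 to 500, -0.16 from 501 to 1000, -0.02 from 1001 to 2000, 0.16 from 2001 to 5000 and 0.35 beyond. The 10 most abundant genes had a median of -0.45, and neighbouring bands went against the slope only at the top and between ranks 151 to 200 and 201 to 500. Without CON2, CON3 and CON5 the medians of the 4 bands from rank 11 to 200 were -0.16, -0.19, -0.13 and -0.14, with -0.13 from 201 to 500, and showed no such order.

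**Figure D5:**
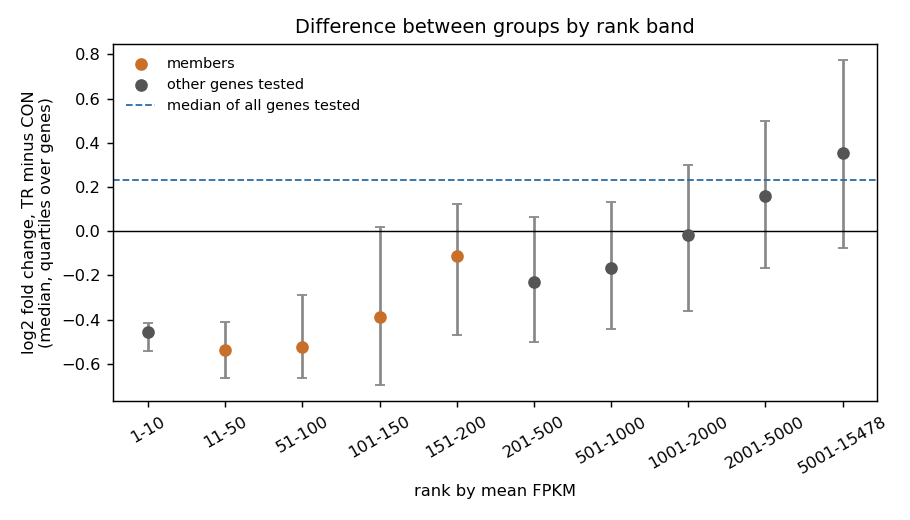
Median log2 fold change between TR and CON (all 10 libraries, FPKM as deposited) by band of rank, with quartiles over the genes of a band as bars (orange, ranks 11 to 200; grey, other genes tested) and the median of all genes tested as a dashed line at 0.23. The median rises from -0.54 for ranks 11 to 50 to 0.35 for the least abundant genes.

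Because FPKM is relative to the whole library, the split of higher and lower genes depended on the scaling. With the libraries brought to a common total (TPM), the median of the 190 was -0.20 and that of all genes 0.45. At an unadjusted p under 0.05 stood 79 of the 190 (60 lower, 19 higher), against 35% of all genes tested. With median-of-ratios size factors the medians were -0.63 and 0.05, and 121 stood there (117 lower, 4 higher), against 32.7%. The distance between both medians was -0.66 as deposited, -0.65 with TPM and -0.68 with size factors. Both scalings divide a library by 1 factor, which moves all genes almost alike. That distance could therefore hardly change, and its likeness says nothing about the effect of scaling. Quantile normalization, which gives every library the same distribution of values, left a distance of -0.02. The median of the 190 was then -0.03, and 66 stood at an unadjusted p under 0.05 (34 lower, 32 higher), against 28.7% of all genes tested. Such scaling takes out by construction any difference that follows the level of the genes. The last band, ranks 151 to 200, was at -0.11 as deposited and at 0.12 with TPM, so its direction was not fixed, whereas the first, ranks 11 to 50, was at -0.54, -0.30 with TPM, -0.73 with size factors and -0.04 with quantile normalization.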

How the data were processed

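RNA of 10 pituitary glands was sequenced, 1 library per ewe, and the sample titles gave the group and replicate number. Per the paper's methods, the authors discarded reads of low quality or with adapter sequence, aligned the rest with HiSAT2 to the sheep assembly Oar v4.0, and deposited the FPKM that StringTie gave for 17866 genes. The annotation release is not given in the sources used here. FPKM is no count, so no count model was run, and the depth in reads is unknown. The 10 tables were joined by gene ID and ranked by mean FPKM. log2(FPKM + 0.1) of 14884 genes (at least 0.1 FPKM in at least 5 libraries) was tested with limma 3.58.1 in R 4.3.3, with intensity trend, robust empirical Bayes and Benjamini-Hochberg adjustment over all genes tested. The other values came from Python 3.11.15 with NumPy 2.4.6 and pandas 2.3.3. The procedure was tested on simulated data in which each gene varied on its own. That test could not cover deviations that many genes share within a library. The genes, lists and alternatives were chosen with earlier results of these data known. At most 2 IDs in each direction are named, those with the smallest p, and other genes are called by rank: the first, the last, those just outside the limits, and the most and least variable. The genes of ranks 159 and 186 were singled out after their values were seen. No 2 libraries were copies: any pair shared at most 1 equal value above 0. Tried as alternatives were pseudocounts of 1 and 0.01, no filter or 1 FPKM as its limit, 5 other scalings (size factors, quantile, totals with all genes or outside the 2 or 10 most abundant), limma without trend, array weights, a replicate block, libraries left out, and ranking by median or mean log2.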

Additional observations from a re-analysis of the deposited data

Results flagged for a closer look

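In 32 groups of 5 libraries (16 measures in each feeding group), 2 had a library far from the other 4, where chance gives about 1.6. The gene of rank 159 had 1815 FPKM in CON2, with the next control at 436.3 FPKM. It was singled out after its values were seen, so the count of 2 cannot be compared with the number from chance. The gene of rank 200 had 220.8 FPKM in CON4, below the next control at 269.4 FPKM.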

How the results depend on the processing

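The median log2 fold change of the abundant genes was below 0 under all 26 alternatives (-0.63 to -0.03, and -0.53 to -0.33 with 1 library left out). It moved by more than the spread between libraries with quantile normalization (-0.030), without CON2, CON3 and CON5 (-0.16), with TPM (-0.20) and with rescaling outside the 2 most abundant genes (-0.22). The 0 genes at an adjusted p under 0.05, also 0 with the fold threshold, became 127 and 17 of the 190 with array weights (46.9 and 20.2% of all genes tested), and 0 to 86 and 0 to 12 with 1 library left out, above 0 only without CON4 (25.4 and 12.7% of all genes tested). The 106 genes at an unadjusted p under 0.05 stood against 33.1% of all genes tested. They became 66 with quantile normalization (against 28.7%), 27 without CON2 and CON5 (against 10.5%) and 7 without CON2, CON3 and CON5 (against 4.92%). When single libraries were dropped the count was 66 to 127. It was 70 without CON2, 66 without TR1, 66 without TR4 and 127 without CON4, against 20, 19, 20.5 and 44.9% of all genes tested. The 8 genes without overlap became 18 without CON2, CON3 and CON5 (11.6% of all genes tested) and 8 to 38 when single libraries were dropped (38 for CON4, 33 for TR3, 14 for TR5, against 13.1, 10.8 and 7.54% of all genes tested). With the replicate number as a block, 111 genes stood at an adjusted p under 0.05 (104 lower, 7 higher), of which 1 passed the fold threshold, against 28.9 and 9.74% of all genes tested. Same-numbered libraries did not deviate together in every pair (correlation across genes of -0.01 for number 2 and 0.15 to 0.50 for the others), and in 2 of 5 numbers the CON library correlated best with its own number, so the numbers were not taken as pairs. The 4 named genes kept their directions under all 24 alternatives, and passed at an adjusted p under 0.05 with array weights, without CON4 and, except gene4551, with the block (adjusted p of 0.0064 to 0.96 over all). The lack of gene symbols and of a read depth for each library limits what can be said of single genes.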
